A study of Mus musculus with 96 samples.

Results

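The genes described here are 10 immediate early genes of the Egr and AP-1 group, namely Egr1, Egr2, Fos, Fosb, Jun, Junb, Jund, Ier2, Ier3 and Dusp1, chosen by their symbols out of 24057 genes. They were measured by single cell RNA-seq in EL4 cells, a T-lymphoma line labelled C57BL/6 by strain and given as C57BL/6 N in the methods, captured on the Fluidigm C1 system with 24 cells from each of 4 cultures. WT cells carried a control shRNA against luciferase (shLuc) and CTCF-KD cells an shRNA against Ctcf (shCTCF), both delivered by viral particles encoding GFP, and GFP+ cells were taken after 5 days of infection. The methods list 2 Ctcf hairpins, and whether both CTCF-KD cultures carried the same one is not given in the sources used here. Wells with no cell or a pair of cells had been removed, and the cells of best quality on each circuit had been chosen before sequencing. WT1 and CTCFKD1 belong to experiment 1, WT2 and CTCFKD2 to experiment 2. As every culture had a circuit to itself, culture, circuit and, within an experiment, condition cannot be told apart. All groups share the EL4 line and the infection, and no uninfected cells were analysed here. Cells with fewer than 3000 genes were dropped, which left 24 WT1, 23 WT2, 24 CTCFKD1 and 24 CTCFKD2 cells, 95 of 96 in all.

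Immediate early genes are transcribed within minutes of a signal, from factors already present in the cell and without new protein synthesis. In T cells, antigen receptor signals run through Ras and ERK to Elk1 and SRF, which act at CArG boxes, and through CREB at cAMP response elements (CRE), while the kinases JNK and p38 modify Jun and ATF proteins. Fos and Fosb pair with Jun, Junb or Jund to form AP-1, Egr1 and Egr2 are zinc finger factors that bind GC-rich sites, Ier2 and Ier3 are small early response proteins, and Dusp1 is a phosphatase that switches MAP kinases off. Their transcripts decay fast, so that a single cell often holds many copies or none.

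Of the 10 genes, 9 had reads and were tested. Jund, the AP-1 subunit that most cells express steadily, was listed at 0 in all cells of WT1, WT2, CTCFKD1 and CTCFKD2, as was Tmsb4x, the gene of an abundant actin-binding protein, so a 0 of Jund cannot be read as absence. In GRCm38, Fos spans chr12:85473890-85477273 (plus strand), Fosb chr7:19302696-19310051 (minus strand), Egr2 chr10:67535475-67542188 (plus strand) and Jun, a gene of 1 exon, chr4:95049034-95052222 (minus strand). Junb, Jund and Ier2 share chromosome 8, with Junb at chr8:84974484-84978718 (minus strand). The GENCODE model of Junb overlaps that of Prdx2, on the other strand, by 351 bases, while the RefSeq models share 0 bases. The strand used in counting is not given in the sources used here, and Prdx2 had 395, 430.1, 332 and 364 TPM in WT1, WT2, CTCFKD1 and CTCFKD2.

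RefSeq promoter windows of GRCm38.p6 were matched for 8 of the 10 genes, Egr1 and Ier2 not among them. The 250 bases before the start are shown for the genes whose levels or co-variation the results turn on, 5′ to 3′ on the strand of the gene, with Egr2 at the third of its 5 listed starts. Capitals mark the motifs found on either strand, which were the CRE half-site TGACG, the Egr site GCGNGGGCG, the CArG box and the TATA box TATAAA.
Fos, chr12:85473640-85473889, plus strand: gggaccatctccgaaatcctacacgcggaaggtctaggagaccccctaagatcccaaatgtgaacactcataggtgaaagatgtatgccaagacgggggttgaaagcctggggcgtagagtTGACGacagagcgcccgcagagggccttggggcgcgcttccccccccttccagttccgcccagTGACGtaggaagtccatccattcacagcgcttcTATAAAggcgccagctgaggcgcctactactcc
Fosb, chr7:19310046-19310295, minus strand: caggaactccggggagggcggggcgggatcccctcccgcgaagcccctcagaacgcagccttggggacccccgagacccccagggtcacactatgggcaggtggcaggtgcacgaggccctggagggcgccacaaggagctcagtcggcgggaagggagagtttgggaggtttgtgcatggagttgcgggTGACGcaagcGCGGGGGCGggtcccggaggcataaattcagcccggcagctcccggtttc
Jun, chr4:95052223-95052472, minus strand: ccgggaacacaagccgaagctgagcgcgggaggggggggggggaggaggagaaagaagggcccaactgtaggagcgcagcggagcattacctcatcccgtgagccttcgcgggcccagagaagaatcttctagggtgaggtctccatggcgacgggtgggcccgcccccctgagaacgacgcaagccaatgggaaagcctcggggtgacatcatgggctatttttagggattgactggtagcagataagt
Junb, chr8:84978749-84978998, minus strand: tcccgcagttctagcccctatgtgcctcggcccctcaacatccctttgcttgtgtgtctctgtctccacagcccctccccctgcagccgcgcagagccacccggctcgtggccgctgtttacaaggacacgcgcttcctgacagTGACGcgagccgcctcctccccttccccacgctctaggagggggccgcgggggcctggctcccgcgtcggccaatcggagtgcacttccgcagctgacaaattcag
Egr2, chr10:67537619-67537868, plus strand: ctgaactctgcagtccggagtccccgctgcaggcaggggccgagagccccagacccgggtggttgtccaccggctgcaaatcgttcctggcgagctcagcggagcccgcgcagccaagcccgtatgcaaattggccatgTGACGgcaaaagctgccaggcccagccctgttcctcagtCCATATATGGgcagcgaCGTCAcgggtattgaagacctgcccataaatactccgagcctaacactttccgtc

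The TGACG half-site was found once or more in the windows of Fos, Fosb, Junb, Dusp1 and in 3 of the 5 windows of Egr2, and in 17.7% of all 32817 windows of this length. A CArG box, the site of SRF, stood in 4 of the 5 Egr2 windows, from 72 to 63 bases before the start in the one shown, against 1.47% of all windows. The windows of Egr2 overlap one another in part and are not separate evidence. The Egr site of Fosb began 50 bases before its start, and 4.70% of all windows hold one. Only the Dusp1 window held the full CRE TGACGTCA, which contains 2 half-sites, against 1.55% of all windows, and of those printed only the Fos window held TATAAA, against 12.4%. No window of the 8 genes held the AP-1 site TGANTCA, found in 6.75% of all windows, or the core of the CTCF motif, found in 2.07%. The Jun window held none of the motifs searched. These are matches of letters in a short window and were not tested for binding.

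Recovered whole reads per cell had medians of 247586, 230477, 234248 and 131086 in WT1, WT2, CTCFKD1 and CTCFKD2, and CTCFKD2 thus gives the least precise levels. The median number of genes detected was higher in both CTCF-KD cultures, at 6172.5 and 5656, than in WT1 and WT2, at 4771 and 4635. Ctcf had a mean of 60.3 TPM in WT1, 37.1 in WT2, 15.96 in CTCFKD1 and 44.9 in the culture labelled CTCFKD2, which goes against that label, and each direction given below for CTCFKD2 rests on the label. Per the methods, cell populations were chosen for sequencing by qPCR and Western blotting of Ctcf, measurements that were not analysed here. Of 10 T-lineage markers, Cd8a was at 0 and Cd4 was at most 30.4 TPM, and the list summed to 8047 TPM in WT1, 7713 in WT2, 5845 in CTCFKD1 and 5392 in CTCFKD2, a difference whose part in the results was not tested. Cd3d, Cd3g and Lck made up most of the sum and were lower in both CTCF-KD cultures than in both WT cultures. Not every marker was, as Cd5 had 158 and 129 TPM in WT1 and WT2 and 152 and 141 TPM in CTCFKD1 and CTCFKD2. B-lineage, fibroblast and erythroid lists summed to at most 4.13 TPM in any culture, and the myeloid list to between 31.3 and 52.1 TPM, nearly all of it Cd68.

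Fos was the most abundant of the group, at 1133 TPM in WT1 and 1581 TPM in WT2, and ranked 89 of 12224 genes by its WT level per length. Egr1 followed at 344 and 709.5 TPM, and Junb at 161 and 75.8 TPM, and the 2 WT cultures of each of these genes did not overlap those of the next. Egr2, Ier2, Fosb and Ier3 lay between 25.3 and 96.4 TPM in the WT cultures, and each overlapped its neighbour in the order. Jun, at 18.99 and 12.2 TPM, lay below them all, and Dusp1 had only 7 and 3 reads in all cells of WT1 and WT2. In CTCF-KD cultures Fos and Egr1 again had the highest means, though Jun overlapped Egr1, while Junb and Egr2, at 16.9 to 23.2 TPM, had moved below Ier2 and Fosb.

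**Figure D1:**
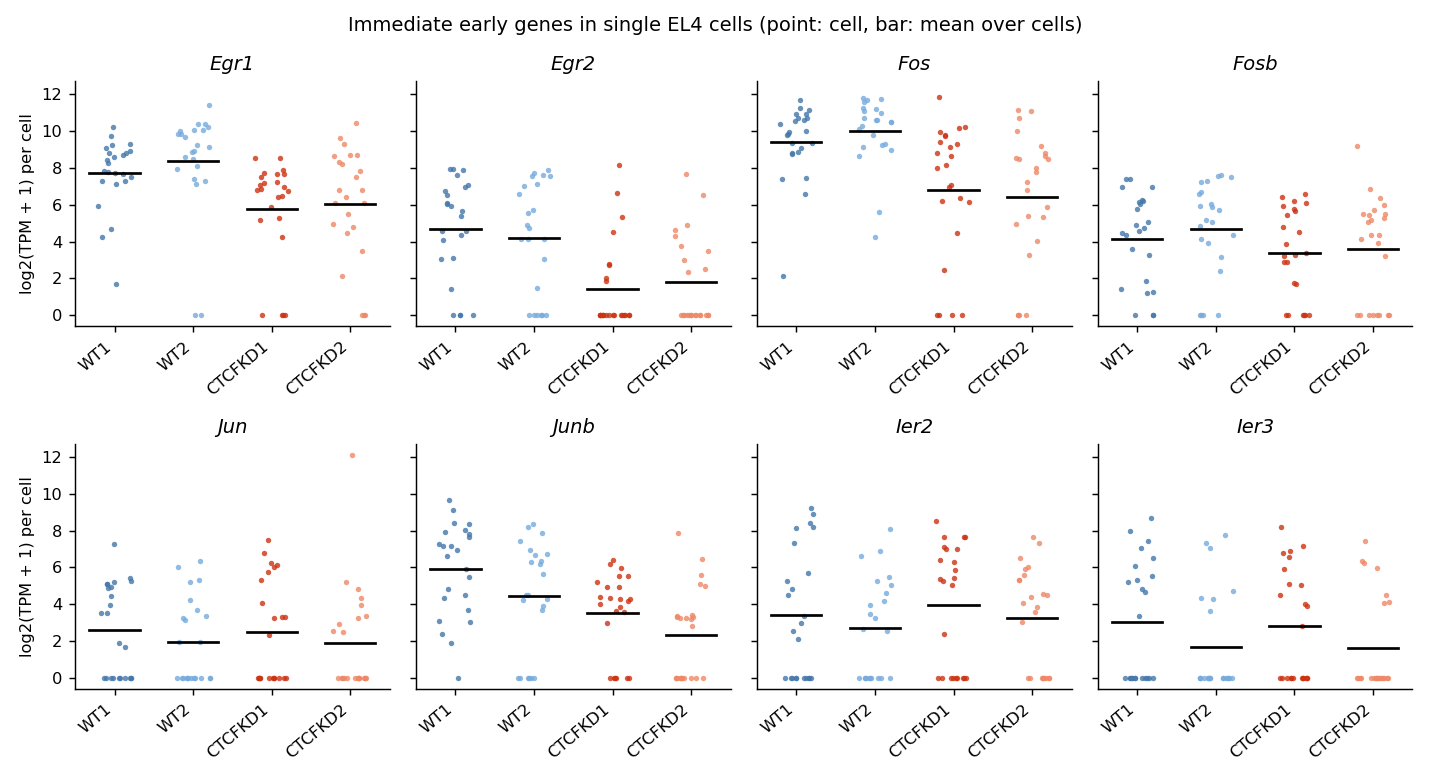
Level of 8 genes in single cells, as log2(TPM + 1) on the vertical axis, by culture (24, 23, 24 and 24 cells). Each point is a cell and each bar the mean over cells. Points at 0 are cells without reads, which for Fos are found only in the CTCF-KD cultures.

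Fos, the founding member of the AP-1 factors, was lower in both CTCF-KD cultures. Its mean was 1133 TPM in WT1 and 1581 in WT2, against 524 in CTCFKD1 and 441 in CTCFKD2, or 46.2% and 27.9% of the WT culture of the same experiment. Both CTCF-KD cultures lay below both WT cultures. In WT cells Fos ranged from 3.33 to 3357 TPM with a median of 945 in WT1 and from 17.8 to 3602 TPM with a median of 1462 in WT2. In CTCF-KD cells it ranged from 0 to 3726 TPM with a median of 267 in CTCFKD1 and from 0 to 2298 TPM with a median of 183 in CTCFKD2. The highest cell of CTCFKD1 thus reached a level like that of the WT cultures, but the next highest CTCFKD1 cell held 1209 TPM. The second highest cells of WT1 and WT2 held 2469 and 3466 TPM. The medians lay apart, and 4 of 24 CTCFKD1 and 3 of 24 CTCFKD2 cells exceeded the median of their WT culture. In the limma test across all genes the log2 change was -1.47 (standard error 0.31, p = 0.0026, adjusted p = 0.585), with -1.11 in experiment 1 and -1.84 in experiment 2. When log2(TPM + 1) was averaged over cells instead, which gives weight to cells without reads, the change was -3.11 and passed the threshold (adjusted p = 0.0468 from limma), as did 2 lower and 44 higher genes in all, Fos included, of 11980. On that scale the median change of all genes was 0.23, against 0.04 on the main scale. Over all alternatives the adjusted p of Fos from limma lay between 0.0468 and 0.839.

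Fosb, its close relative, was at 45.8 and 63.4 TPM in WT1 and WT2 and at 26.4 and 50.6 TPM in CTCFKD1 and CTCFKD2. The groups overlapped, and the log2 change was -0.55 (standard error 0.54, adjusted p = 0.848 from limma). A single CTCFKD2 cell held 589 TPM, and the next highest cell of that culture 115 TPM. Without that cell, an alternative chosen after the data were seen, the log2 change of Fosb was -0.98.

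Jun, the main partner of Fos in AP-1, was at 18.99 TPM in WT1, 12.2 in WT2, 26.5 in CTCFKD1 and 191 in CTCFKD2. The last value rested on 1 cell, which held 4454 TPM of Jun from 236 reads, whereas the next highest CTCFKD2 cell held 35.5 TPM. The same cell ranked first in its culture for Egr1, Egr2, Fos, Fosb and Jun, and it was the shallowest of the culture, with 41591 reads and 3150 genes. The log2 change of Jun was 2.16 (standard error 0.94, adjusted p = 0.657 from limma) with this cell and -0.26 without it. Jun therefore had no direction that held across the settings tried.

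Junb, an AP-1 subunit with weaker activating power than Jun, was lower in both CTCF-KD cultures. Its mean was 161 TPM in WT1 and 75.8 in WT2, against 23.2 in CTCFKD1 and 20.8 in CTCFKD2, or 14.4% and 27.4% of the WT cultures. In WT1 cells it reached 825 TPM with a median of 109, while in CTCFKD1 it reached 84.9 TPM with a median of 17.8, and 0 of 24 CTCFKD1 cells exceeded the WT1 median. In experiment 2 the medians were 21.5 TPM in WT2 and 7.14 TPM in CTCFKD2, and 5 of 24 CTCFKD2 cells exceeded the WT2 median. The 2 WT cultures differed by more than the 2 CTCF-KD cultures, and the groups did not overlap. The log2 change was -2.28 (standard error 0.53, p = 0.0043, adjusted p = 0.585 from limma). Junb rested on few reads in the CTCF-KD cultures, 133 in CTCFKD1 and 52 in CTCFKD2, against 1005 and 394 in WT1 and WT2.

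Both Egr genes were lower in both CTCF-KD cultures. Egr1, a factor induced by receptor signals in T cells and encoded on chromosome 18 from 34859823 to 34864984, was at 344 and 709.5 TPM in WT1 and WT2 and at 124 and 236 TPM in CTCFKD1 and CTCFKD2, or 36.01% and 33.2% of the WT culture of the same experiment. WT2 and CTCFKD2 were the higher culture of each condition, and the groups did not overlap. The log2 change was -1.53 (standard error 0.48, p = 0.018, adjusted p = 0.597 from limma), and -1.47 and -1.58 in experiments 1 and 2. Egr2, which restrains T cell activation, was at 73.2 TPM in WT1, 69.02 in WT2, 19.2 in CTCFKD1 and 16.9 in CTCFKD2, or 26.3% and 24.4%. Its log2 change was -1.92 (standard error 0.49, p = 0.0069, adjusted p = 0.585 from limma). In the CTCF-KD cultures most of the Egr2 signal came from few cells, the 3 highest cells holding 91.6% of the summed TPM in CTCFKD1 and 80.04% in CTCFKD2, against 41.4% and 40.3% in WT1 and WT2.

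The small early response genes overlapped between the conditions. Ier2 was at 96.4 and 29.6 TPM in WT1 and WT2 and at 72.4 and 33.9 TPM in CTCFKD1 and CTCFKD2, and limma gave -0.11 as its log2 change (SE 0.70, adjusted p = 0.985). Ier2 differed more between the experiments than between the conditions. Ier3, a survival and stress response gene, was at 54.1 and 25.3 TPM in WT1 and WT2 and at 39.2 and 18.5 TPM in CTCFKD1 and CTCFKD2, or -0.44 on the log2 scale (SE 0.66, adjusted p = 0.906 from limma). Both genes were higher in experiment 1 than in experiment 2 in either condition. Dusp1 had 7, 3, 13 and 14 reads in all cells of WT1, WT2, CTCFKD1 and CTCFKD2, too few for a direction.

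**Figure D2:**
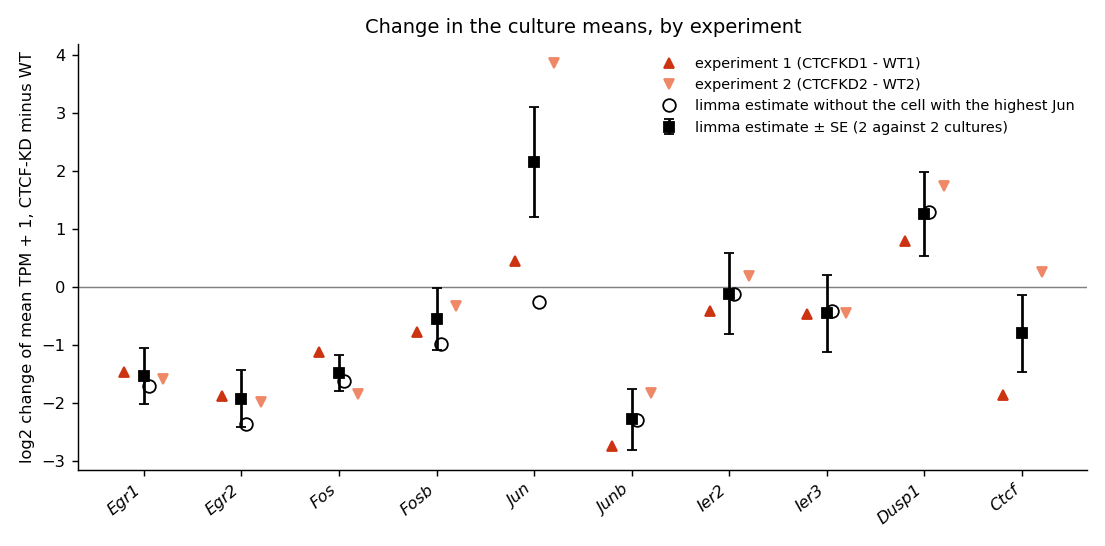
Log2 change of the culture mean, CTCF-KD minus WT, for 9 genes and Ctcf. Squares with bars are the limma estimate and its standard error over 2 against 2 cultures, triangles the difference within experiment 1 and experiment 2, and open circles the estimate without the cell with the highest Jun. Fos, Junb, Egr1 and Egr2 lie below 0 in both experiments, Jun is at 2.16 with all cells and at -0.26 without 1 cell, and Ctcf has opposite signs in the experiments.

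Across the 9 genes tested, 0 passed an adjusted p under 0.05 in either direction, as did 0% of all 11980 genes. At an unadjusted p under 0.05, Egr1, Egr2, Fos and Junb were lower, 4 of 9 against 2.82% of all genes called lower, and 0 of 9 were higher against 4.79%. Without CTCFKD1 the count of lower genes was 2, and without the culture labelled CTCFKD2 it was 1, the 4 genes keeping their negative sign in both cases. Both CTCF-KD cultures lay below both WT cultures for 4 of 9, against 16.9% of all genes, and the reverse for 2, Jun and Dusp1, against 19.9%. Lower in both experiments were 6 of 9, against 26.7%, and higher in both were Jun and Dusp1, 2 of 9 against 30.1%. With the experiment as a block, 4 of the 9 were lower and Jun was higher, while over all genes 613 were lower and 918 higher in place of 338 and 574. With log2(TPM + 1) averaged over cells, the split over all genes was 178 lower and 1811 higher, and 4 of the 9 were lower. The median log2 change of the 9 was -0.55, against 0.04 over all genes tested, and it was -0.98 without the cell with the highest Jun. The smallest p an exact permutation test allows for 2 and 2 cultures is 0.333. A lower culture mean can come from fewer cells with transcripts or from fewer transcripts per cell, and both were measured.

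Fewer CTCF-KD than WT cells had reads of Egr1, Egr2, Fos and Fosb. Fos reads were found in 24 of 24 WT1 and 23 of 23 WT2 cells, and in 20 of 24 cells of CTCFKD1 and of CTCFKD2. Egr2 showed the largest gap, with reads in 83.3% of WT1 and 73.9% of WT2 cells against 33.3% of CTCFKD1 cells (exact 95% binomial interval 15.6% to 55.3%) and 41.7% of CTCFKD2 cells (22.1% to 63.4%). These intervals cover counting error only. Both CTCF-KD cultures lay below both WT cultures for these 4 of the 9 genes, whereas 5.96% of all genes did. The opposite order was much more common over all genes, at 36.2%, and among the 9 it was found for Ier2 alone, with reads in 58.3% and 56.5% of WT and in 62.5% of the cells of either CTCF-KD culture.

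The order was also seen at equal depth. When each cell was thinned to 80000 reads, which left out 1 CTCFKD2 cell, the expected share of cells with Fos reads was 97.1% in WT1, 99.2% in WT2, 80.5% in CTCFKD1 and 80.4% in CTCFKD2. Junb then joined the genes with both CTCF-KD cultures below both WT cultures, at 82.7% and 67.96% against 64.8% and 37.8%. The median difference in the share of cells over the 9 genes, with all reads, was -10.2 percentage points, against 5.98 points over all genes, and it was -5.89 points without WT1. As a description of the 4 genes that were lower at an unadjusted p under 0.05, and no separate evidence, cells with reads of all of Egr1, Egr2, Fos and Junb numbered 19 of 24 in WT1, 14 of 23 in WT2, 5 of 24 in CTCFKD1 and 6 of 24 in CTCFKD2. A cell had reads of 6.46 of the 10 genes on average in WT1, 5.61 in WT2, 5.17 in CTCFKD1 and 4.75 in CTCFKD2 (exact permutation test, two-sided, p = 0.333, the smallest that 2 cultures against 2 allow). Among cells with reads, the median of Fos was 945 TPM in WT1 and 1462 in WT2 against 431 in CTCFKD1 and 308 in CTCFKD2, so by this median the cells that held Fos also held less of it.

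**Figure D3:**
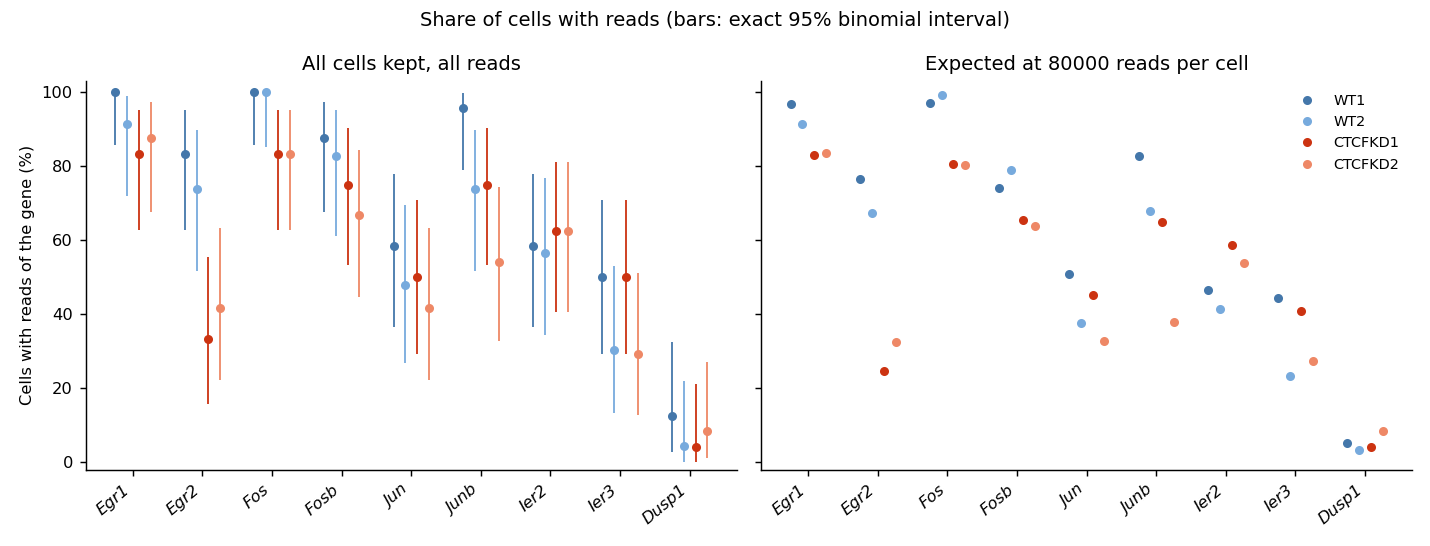
Percentage of cells with reads of each gene by culture, with all reads and exact 95% binomial intervals on the left and the share calculated for 80000 reads per cell on the right. Egr2 is at 83.3% and 73.9% in WT and at 33.3% and 41.7% in CTCF-KD, and on the left Ier2 alone has its CTCF-KD cultures above its WT cultures.

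Cell-to-cell variation was measured by the coefficient of variation (CV) of log2(TPM + 1) among WT or CTCF-KD cells. A gene was called if the change of its CV was beyond 1 SD of the changes of all genes around their mean. Of the 8 genes with a mean log2(TPM + 1) above 1, Egr1, Egr2, Fos, Fosb, Jun and Junb were called increased, 6 of 8 against 7.68% of 7843 genes. None of the 8 was called decreased, against 11.3%, and Ier2 and Ier3 were not called. The CV of Fos was 0.201 in WT and 0.548 in CTCF-KD, that of Egr1 0.302 and 0.495, that of Junb 0.550 and 0.822, and that of Egr2 0.639 and 1.49. By culture, the CV of Fos was 0.215 in WT1, 0.186 in WT2, 0.546 in CTCFKD1 and 0.561 in CTCFKD2. For 4 of the 8, both CTCF-KD cultures had a higher CV than both WT cultures, against 4.93% of genes.

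The CV of a gene depends on its mean, and the mean log2(TPM + 1) of each of these genes but Ier2 was lower in CTCF-KD. Set against the CV of other genes of like mean in the same condition, Fos was at 2.17 times the expected CV in WT and 1.86 times in CTCF-KD, Egr1 at 1.499 and 1.33 times, and Junb at 1.00 and 0.913 times. Egr2, at 0.957 and 1.09 times, Jun, at 0.870 and 1.15 times, and Fosb, at 0.850 and 0.973 times, moved the other way. Fos and Egr1 thus varied more than genes of like mean in both conditions. With the SD in place of the CV, or with a pseudocount of 10, 3 of the 8 were called, namely Egr1, Fos and Jun, while of all 7843 genes 1050 were called with the SD and 1021 with that pseudocount, in place of 602. The SD of Fos was 1.95 in WT and 3.62 in CTCF-KD, whereas that of Egr2 was 2.85 and 2.40 and that of Junb 2.85 and 2.40. Without WT1 the CV rule called 3 of the 8, namely Egr2, Fos and Fosb, of 549 genes in all. Without WT2, Ier3 was called in place of Fosb, of 576 genes in all. Without CTCFKD1, 5 were called, of 651 genes in all, with Ier3 among them and Egr1 and Fosb not. Without CTCFKD2, 4 were called, of 617 genes in all, with Jun and Junb not among them. Egr2 and Fos were called whichever culture was left out.

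**Figure D4:**
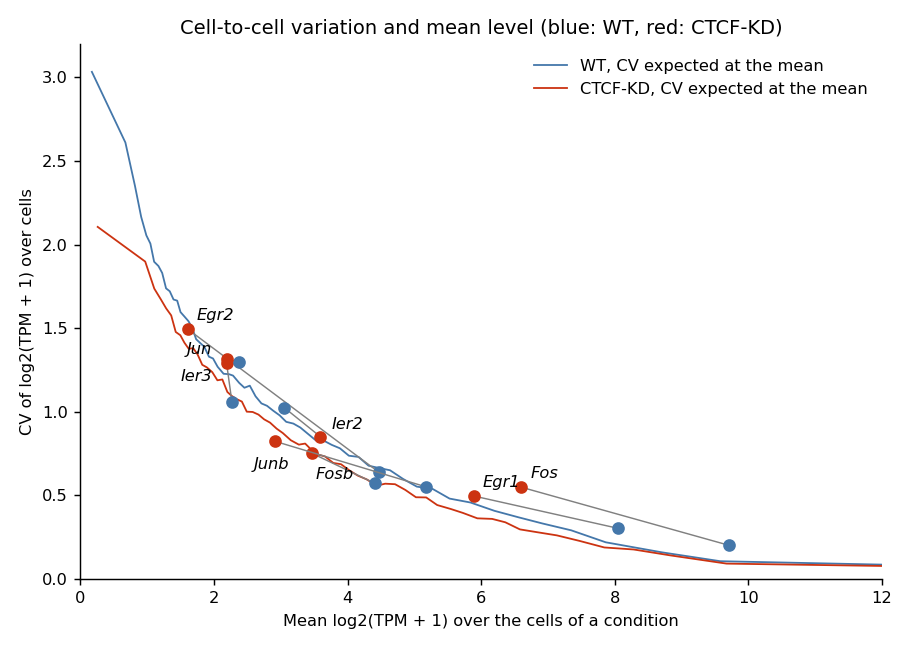
CV of log2(TPM + 1) over cells against the mean log2(TPM + 1), for 8 genes in WT (blue) and CTCF-KD (red) joined by grey lines, with curves for the CV expected at the mean from a running median over genes. Fos, Egr1, Ier2 and Ier3 lie above the curve in both conditions, and Egr1, Egr2, Fos, Fosb and Junb move up and to the left along it in CTCF-KD.

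Over the cells of a culture, Fos varied with the other AP-1 genes. Spearman's rho, averaged over the 4 cultures, was 0.54 for Fos with Jun, 0.53 for Fos with Fosb, 0.37 for Fos with Junb, 0.35 for Fosb with Jun and 0.32 for Egr1 with Egr2. It was lower for Jun with Junb, at 0.21, and for Fosb with Junb, at 0.10, and Fosb with Jun was at -0.21 in WT1. The 5035 genes with reads in at least 50% of the cells do not include Jun or Ier3. Over all pairs of these 5035 genes, the median rho was 0.02 and the 99th percentile 0.28. These are descriptions over 23 or 24 cells per culture that share a circuit and differ in depth, and no p was computed. Of the 28 pairs of the 8 genes with reads in at least 10 cells, the median rho was 0.16, and on the mean of the 4 cultures all 21 pairs without Ier3 had a positive rho and all 7 with Ier3 a negative one. In single cultures Ier3 had a positive rho with Jun (0.22), Fos (0.11), Junb (0.092) and Fosb (0.034) in WT1 and with Egr2 (0.24) in CTCFKD1. Its rho with Egr1 and with Ier2 was negative in each culture. With thinned reads 20 of the 28 pairs were positive. The lowest was Fosb with Ier3 at -0.23, and 10 of the 28 pairs were positive in each of the 4 cultures. The number of genes detected had a mean rho between -0.19 and 0.10 with these genes, but from -0.48 (Fosb in CTCFKD2) to 0.61 (Fosb in WT2) in single cultures.

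Among Fos, Fosb and Jun, each rho was higher in both CTCF-KD cultures than in both WT cultures. The rho of Fos with Jun was 0.32 in WT1 and 0.20 in WT2, and 0.88 in CTCFKD1 and 0.75 in CTCFKD2. For Fos with Fosb it was 0.33, 0.32, 0.66 and 0.79 in the same order. After thinning to 80000 reads the values for Fos with Jun were 0.41, 0.32, 0.84 and 0.75, without the cell with the highest Jun CTCFKD2 had 0.71, and among cells with Fos reads alone the CTCF-KD cultures had 0.88 and 0.73. Of all 28 pairs, 5 had a higher rho in both CTCF-KD cultures than in both WT cultures, and 3 had a lower one. Over pairs of the 5035 genes with reads in at least 50% of the cells, these shares were 16% and 17.7%. The share of pairs that differed was thus near that of those genes. Jun and Ier3, with reads in 47 and 38 cells, are not among the 5035. The 5 pairs with a higher rho were Fos with Jun, Fos with Fosb, Fosb with Jun, Egr1 with Fos and Egr1 with Fosb. Ctcf itself had a mean rho between -0.18 and 0.03 with the 8 genes.

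**Figure D5:**
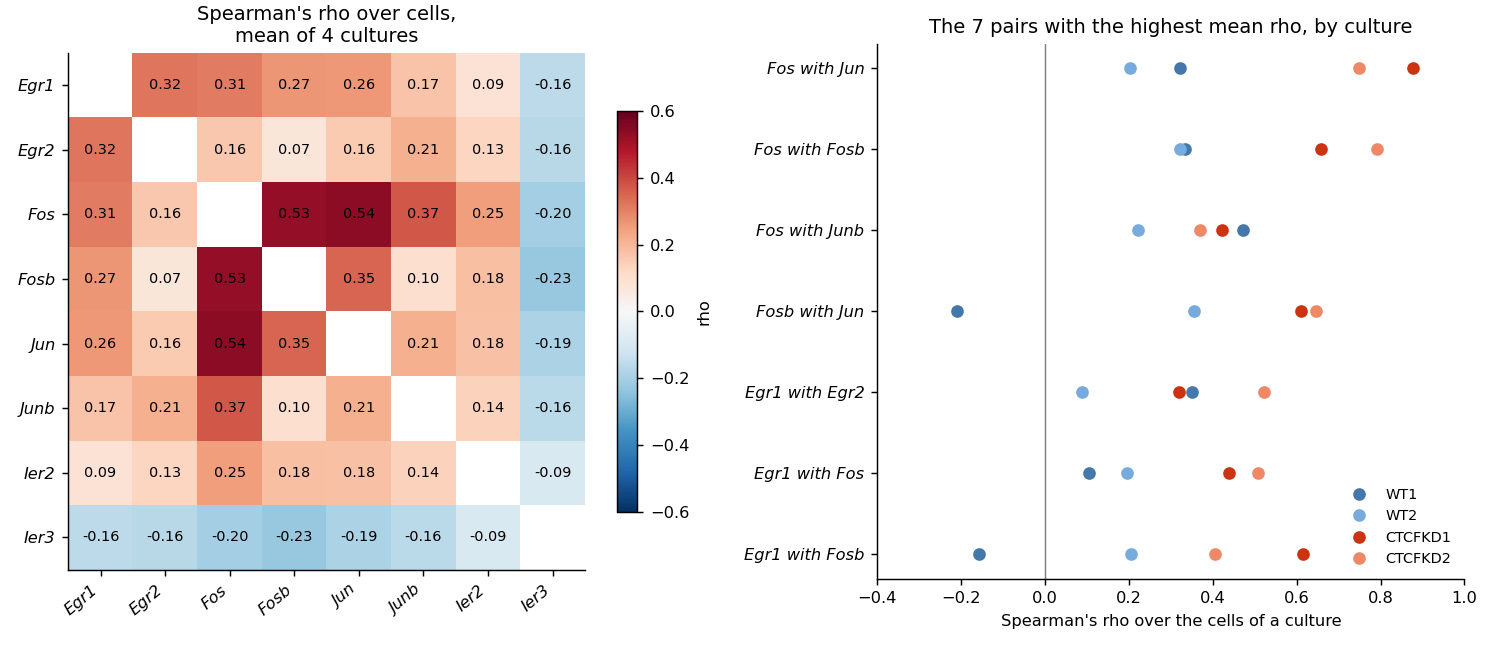
Left, Spearman's rho over cells for the pairs of 8 genes, as the mean of 4 cultures, and right, rho by culture for the 7 pairs with the highest mean. On the left Ier3 is negative with the other 7 genes. On the right Fos with Jun is at 0.32 and 0.20 in WT1 and WT2 and at 0.88 and 0.75 in CTCFKD1 and CTCFKD2. It is among 5 of 28 pairs with both CTCF-KD cultures higher, against 16% of pairs of genes with reads in at least 50% of the cells.

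The genes most like each member were taken among those with reads in at least 50% of the cells, by the mean rho over the 4 cultures. Jun and Ier3, with reads in fewer cells, were thus left out of these lists. For Fos they were Fosb (0.53), Btg1 (0.48) and Dusp6 (0.42), and for Fosb they were Fos, Ccnd1 (0.42) and Btg1 (0.40). Btg1 restrains proliferation, Dusp6 is a phosphatase of ERK and Ccnd1 is cyclin D1. Among the genes most like Egr1 were Ccnl1 (0.43) and Tsr1 (0.38), and Egr2 was most like Srsf5 (0.39), Cmpk1 (0.39) and Ccnl1 (0.38), with Egr1 and Egr2 at rank 10 or better in each other's lists. Junb was most like Atp5s, Kansl3 and Fos, with rho from 0.37 to 0.38, and Ier2 most like Rabgap1l, Eif2ak3 and Map1lc3b, with rho from 0.34 to 0.41.

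For the mean of the standardised log2 values of Egr1, Egr2, Fos, Fosb, Junb and Ier2, the 8 other genes most like it were Btg1 (0.56), Sik1, Dusp6, Ccnl1, Cd69, Ppp1r15a, Snora31 and Snhg6, down to 0.39. Sik1 and Dusp6 are among the other immediate early genes listed for comparison, and Cd69, an early activation antigen of lymphocytes, is among the response genes. The 6 genes took ranks 1, 2 and 4 to 7, as each is part of the mean. Btg1 had a positive rho in each culture, from 0.42 to 0.72. The mean of the 6 had a rho of 0.01 with the number of genes detected and of -0.10 with reads.

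Other genes of the pathway were described in the same test, by lists. Of 34 other immediate early genes, 10 were at 0 in all cells and 24 were tested, of which 0 passed the adjusted threshold. At an unadjusted p under 0.05, 2 were lower and 0 higher, against 2.82% and 4.79% of all genes. The 2 were Dusp6, at 108 and 228 TPM in WT1 and WT2 and 51.1 and 46.5 TPM in CTCFKD1 and CTCFKD2 (log2 change -1.67), and Nr4a1, a nuclear receptor induced by T cell receptor signals, at 175 and 241 TPM and 86.8 and 84.3 TPM (log2 change -1.25), both with an adjusted p of 0.585 from limma. Of these 24 genes, 11 had both CTCF-KD cultures below both WT cultures and 2 the reverse, against 16.9% and 19.9% of all genes. In both experiments 15 were lower and 5 higher, against 26.7% and 30.1% of all genes, and the median log2 change of the 24 was -0.55. Myc, at 241 and 238 TPM in WT and 344 and 315 TPM in CTCF-KD, was among those with the highest statistic, with a log2 change of 0.46, as was Ier5 at 0.88, both without an unadjusted p under 0.05.

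Of the genes upstream, 1 passed an unadjusted p under 0.05, and over all genes 2.82% were lower and 4.79% higher at that threshold. None of 15 ERK pathway genes passed an unadjusted p under 0.05, with Araf (log2 change -0.49) and Rasgrp1 (-0.63) on the lower side and Mapk3 (0.84), which encodes ERK1, on the higher. Nor did any of 10 SRF, ternary complex and CREB factors, with Creb1 at -1.33, Ep300 at -0.97, Elk1 at 0.44 and Mkl1 at 0.65. Of 10 JNK and p38 genes, Map2k3, a kinase that activates p38, was higher, at 73.02 and 55.3 TPM in WT1 and WT2 and 250.05 and 180.1 TPM in CTCFKD1 and CTCFKD2 (log2 change 1.72, p = 0.0034, adjusted p = 0.585 from limma), while Mapk14 (-0.84), Mapk9 (-1.14) and Map2k6 (1.07) did not pass an unadjusted p under 0.05.

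Of 5 AP-1 partners and Egr co-repressors tested, 0 were lower and 2 higher in both experiments, and of 7 response genes 1 was lower and 2 higher, against 26.7% and 30.1% of all genes, counts too small to set these lists apart. Batf, which pairs with Jun proteins, was at 65.1 and 15.03 TPM in WT1 and WT2 and 64.97 and 95.4 TPM in CTCFKD1 and CTCFKD2. Mafk had a log2 change of 2.19, Mafg 0.25 and Nab1 0.01, with no unadjusted p under 0.05. Of the response genes, Cd69 was at 377 and 1272 TPM in WT and 231 and 455 TPM in CTCF-KD (log2 change -1.09, adjusted p = 0.751 from limma). Tnf had an unadjusted p of 0.018 with a log2 change of 2.24, but at a mean of at most 6.10 TPM, with reads in 2, 0, 6 and 2 cells of WT1, WT2, CTCFKD1 and CTCFKD2. Rcan1 and Nfatc2 were at most at 7.69 TPM in any culture. Heat shock genes, a list of stress genes that cell handling can induce, had 0 of 7 lower and 4 of 7 higher in both experiments, against 26.7% and 30.1% of all genes, with Hspd1 at 0.99, Hspe1 at 0.68, Hspa8 at -0.12 and Bag3 at -0.13 as log2 changes. The part of cell handling in these results was not tested.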

How the data were processed

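The authors aligned the reads with STAR to GRCm38, counted uniquely mapped reads per gene with HTSeq and deposited TPM values, which are scaled by gene length and by each cell's total, with every sequenced cell in the table. No molecular identifiers are described, so intervals cover counting error only. The members and lists were chosen with earlier results of these data known.

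Cells with at least 3000 genes were kept. Whole reads were recovered from the TPM steps (99.99% of values within 0.001 of a whole number, 19 of 13334 genes not recovered), with 6191471, 5492247, 5606090 and 3232213 reads in WT1, WT2, CTCFKD1 and CTCFKD2, and were used for depth and thinning only. No count model was fitted. Expression was tested with limma 3.58.1 (R 4.3.3; eBayes with trend, two-sided, Benjamini-Hochberg adjustment over 11980 genes) on log2(mean TPM + 1) of 4 cultures, keeping genes that exceeded 1 TPM in 2 or more cells. Fold changes on this scale understate the change of low genes. The replicate is the culture, and p-values measure the spread between these cultures. Same-numbered cultures share an experiment in the methods of the study, and their deviations had a correlation of 0.175 over the 11980 genes. Shares of cells were compared by exact permutation. CV and Spearman's rho are descriptions.

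Genes named are the members, Ctcf, the 2 highest and 2 lowest limma statistics of each list, and the genes most like the members by rho. Jund, Tmsb4x, Prdx2, Cd3d, Cd3g, Lck, Cd5, Cd4, Cd8a and Cd68 were named after their values were seen. Some genes that the rule names are not reported here. The limma step, the CV rule and the recovery of reads were tested on simulated data, and the other steps were not. In its top 200 genes the limma step held 75 of 200 genes changed 4-fold and 144 of 200 changed 32-fold. It called 0 genes at the adjusted threshold, so a count of 0 there does not show that genes did not change. The CV rule called 688 of 7396 genes, with 180 of the 200 whose SD had been multiplied by 1.8 among them. Positions are from GENCODE M21. Alternatives covered pseudocounts of 0.1 and 10, the filter on genes, the scale of the mean, size factors, cells with at least 4000 genes, thinning, the replicate block and leaving out each culture. Python 3.11.15, numpy 2.4.6, pandas 2.3.3 and scipy 1.17.1 were used.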

Additional observations from a re-analysis of the deposited data

Results flagged for a closer look

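Ier2 had a log2 change of -0.41 in experiment 1 and 0.19 in experiment 2, so that the only CTCF-KD culture of each experiment lay on opposite sides of its WT culture. Ctcf had -1.85 in experiment 1 and 0.27 in experiment 2. Neither difference between the experiments was tested.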

How the results depend on the processing

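Egr1, Egr2, Fos, Fosb and Junb kept the sign of their log2 change in all 12 alternatives. So did Dusp1, but it had only 37 reads in 7 cells and was at 0.099 on the mean over cells of log2 values. With log2(TPM + 1) averaged over cells, 1 gene, Fos, passed the adjusted threshold in place of 0, with 2 lower and 44 higher among all genes. Of the sign changes, Jun was at -0.15 with at least 4000 genes per cell, at -0.074 on the mean over cells of log2 values and at -0.26 without the cell with the highest Jun, and Ier2 was at 0.22 and 0.54 in the first 2 of these. With 1 culture left out, the change of Ier2 ranged from -0.95 to 0.73 and that of Ier3 from -0.98 to 0.089. The median change of the group was -1.18 with at least 4000 genes per cell, -0.94 on the mean over cells of log2 values and -0.98 without the cell with the highest Jun, and from -1.004 to -0.78 with 1 culture left out. The cell with the highest Jun has fewer than 4000 genes.

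With 1 culture left out, Egr1, Egr2, Fos and Junb stayed lower, Egr1 being at -1.01 without WT2, and 3 to 6 genes had an increased CV. A lone culture is then assumed to vary like the others in the limma fit, so its calls by p are not counted. An increased CV was called for 3 genes with a pseudocount of 10 and for 3 with the SD, with 1021 and 1050 of 7843 genes called in place of 602. With the replicate block, that is with the experiment as a pairing of cultures, 0 genes passed the adjusted threshold (lowest adjusted p = 0.198), 4 were lower and 1, Jun, higher unadjusted, the median change was -0.55 and 6 had an increased CV. Within experiments the median difference in the share of cells with reads was -12.5 and -6.16 percentage points, and the block changed no other call. The median difference in shares and the median rho moved by less than the spread between cultures in all their alternatives, though the former was -5.89 points without WT1 against -10.2 with all cultures. CTCFKD2 had the fewest reads, and low counts of Junb, Egr2 and Dusp1 limit those values most.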
